A study of Mus musculus with 6 samples.

Results

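A set of 10 genes of the cytosolic heat shock system was followed in sorted erythroid cells of the mouse fetal liver. They were the transcription factor gene Hsf1, the HSP70 genes Hspa8, Hspa1a and Hspa1b, the HSP110 genes Hspa4 and Hsph1, the HSP90 genes Hsp90aa1 and Hsp90ab1, and the J-domain genes Dnaja1 and Dnajb1. They were found by symbol, and all 10 were present, on 9 of the 23094 rows with a gene name, because Hspa1a and Hspa1b share 1 row. Dnaja1 stood on 2 rows, of which the one with the higher mean, shared with the microRNA gene Mir207, was used. RNA had been sequenced from 3 libraries labelled Tfam KO and 3 labelled Tfam WT, all of strain C57BL/6, each from cells sorted at embryonic day 13.5 as positive for CD71, which imports transferrin-bound iron, and for the red cell antigen Ter119. Tfam encodes a factor that packages and transcribes mitochondrial DNA. No Cre driver, litter, sex or batch is given. The labels do not say that replicates came from different embryos, and p-values therefore cover only the spread between these libraries.

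Heat shock proteins bind unfolded polypeptides and help them to fold, to be transported or to be degraded. HSP70 proteins do so in cycles of ATP hydrolysis that J-domain proteins start and that nucleotide exchange factors such as the HSP110 proteins end, and HSP90 takes over clients such as kinases and hormone receptors at a late folding stage. Under proteotoxic stress HSF1 is released from chaperones, forms trimers, binds heat shock elements and raises transcription of the inducible forms, among them Hspa1a, Hspa1b and Dnajb1, while Hspa8 and Hsp90ab1 are made in unstressed cells as well. Erythroblasts fold very large amounts of globin, and in human erythroblasts nuclear HSP70 is known to protect the master regulator GATA1 from caspase cleavage.

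The libraries differed before any chaperone was considered. Levels are RPKM, read counts scaled to transcript length in kilobases and to the mapped reads of the library, and their sums were 424377 to 535933 in the KO libraries and 423263, 461927 and 815524 in WT replicates 2, 1 and 3. WT replicate 3 stood apart, with a median log2 deviation of 0.65 over the 1656 rows of shortest transcript and -0.51 over the 1654 rows of longest transcript, where the 5 other libraries lay between -0.27 and 0.17. The long nuclear RNA Malat1 was at 202, 181 and 76.5 RPKM in KO replicates 1 to 3 and at 158, 211 and 46.6 RPKM in WT replicates 1 to 3, so it was lowest in the libraries numbered 3. The targeted gene Tfam was at 5.92, 7.22 and 6.25 RPKM in KO libraries and 7.22, 8.44 and 5.72 RPKM in WT libraries (two-sided p = 0.7 by exact permutation, which cannot go below 0.1 here). Tfam therefore gives no check of the labels, and KO and WT name the libraries as labelled. Of the erythroid genes, Alas2, which starts heme synthesis in red cell precursors, was at 2607 ± 680 RPKM in KO and 3440 ± 1810 RPKM in WT libraries, and Tfrc, which encodes CD71, at 865 ± 92.0 RPKM in KO and 795 ± 170 RPKM in WT libraries (SD, n = 3 each). Summed markers of other cells were far lower. Those of macrophages reached 4.55 to 11.7 RPKM in KO and 12.2 to 18.7 RPKM in WT libraries, with Cd163 at 0 in all, and those of megakaryocytes 26.1 to 83.6 RPKM in KO and 39.6 to 73.2 RPKM in WT libraries. Hepatocyte markers reached 14.8 to 136 RPKM in KO and 39.1 to 85.2 RPKM in WT libraries, and neutrophil markers 28.6 to 74.2 RPKM in KO and 39.2 to 173 RPKM in WT libraries.

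No gene of the cytosolic heat shock system differed between Tfam KO and Tfam WT libraries beyond the spread of the replicates. All 9 rows had a mean of at least 1 RPKM and were tested with limma on log2(RPKM + 1) together with all 8302 rows above that level. None passed an adjusted p of 0.05, the threshold that 0% of all tested rows passed, and none had an unadjusted p under 0.05, where 1.2% of all tested rows did. The KO and WT values overlapped in each of the 9 rows. Overlap was also the rule over the whole table, since every KO library lay on one side of every WT library in only 4.54% of all tested rows. The median log2 fold change, KO over WT, was -0.08 over the 9 rows and -0.02 over all tested rows. A fitted value below 0 was found for 8 of the 9 rows and for 4402 of all 8302 tested rows. That balance depended on the scaling and on the libraries used. With each library scaled to the same RPKM sum, 7 of the 9 had a value above 0, and the median of all rows moved to 0.17. After quantile normalization 5 of 9 did, and with the length trend removed 1 of 9. Without WT replicate 3 it was 6 of 9, without KO replicate 1 it was 4 of 9, and without both libraries numbered 3 it was 3 of 9. In the fit without WT replicate 3 no chaperone row had an unadjusted p under 0.05 either, where 2.2% of all tested rows did. In bulk RNA fewer cells of a type and less RNA per cell cannot be told apart.

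**Figure D1:**
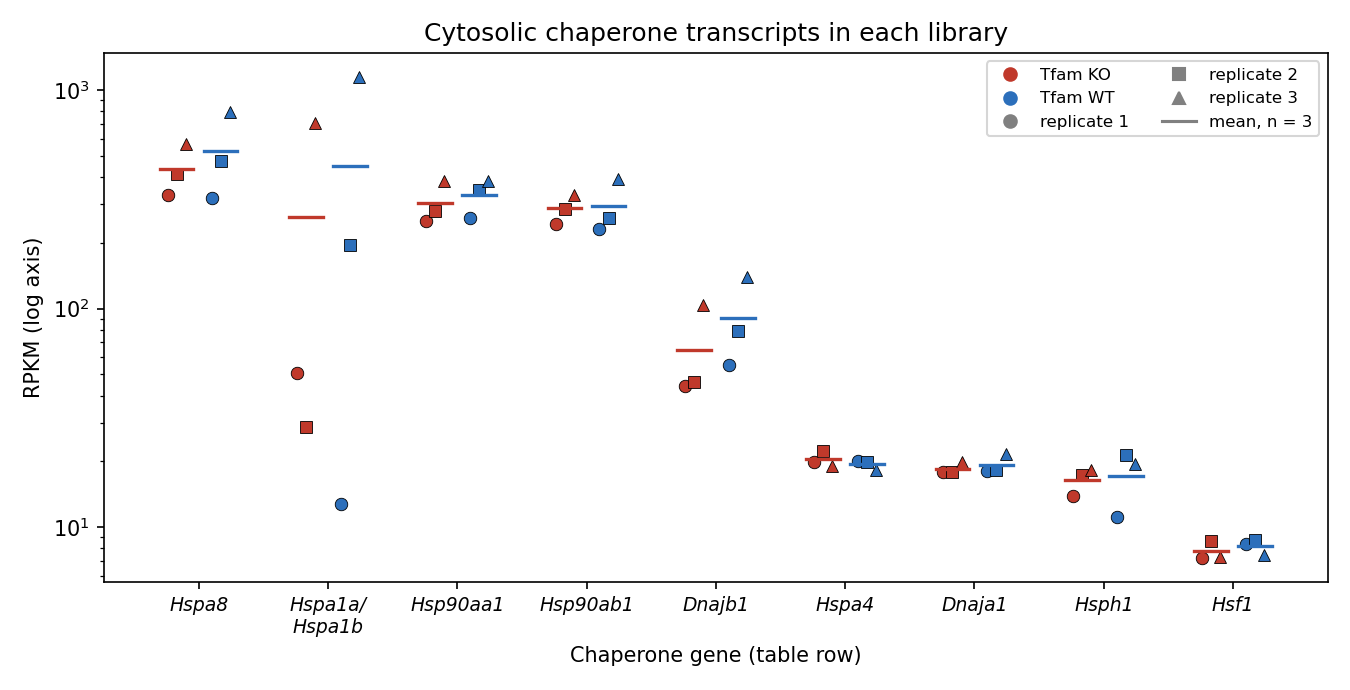
RPKM on a log axis of the 9 rows in each library, KO in red at the left and WT in blue at the right of each gene, with marker shapes for the replicate number and lines for the group means (n = 3). Hspa1a/Hspa1b runs from 12.7 to 1150 RPKM, and its highest levels are in the replicates numbered 3 of both groups.

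The stress-inducible HSP70 transcripts were the most variable of the chaperones, and they varied between libraries of the same label. The joint row of Hspa1a and Hspa1b was at 50.6, 28.7 and 709 RPKM in KO replicates 1 to 3 and at 12.7, 195 and 1150 RPKM in WT replicates 1 to 3. The library numbered 3 was the highest of each group, and the groups overlapped completely. The highest library, WT replicate 3, held 90.7 times the level of the lowest, WT replicate 1. On the log2(RPKM + 1) scale the range over the 6 libraries was 6.39, which ranked number 4 among the 8302 tested rows, whose median range was 0.70. Group means were 263 ± 386 RPKM in KO libraries and 452 ± 611 RPKM in WT libraries (SD, n = 3 each). The log2 fold change was -0.50 (SE 1.76, 95% interval -4.65 to 3.64, limma adjusted p = 0.941), and without WT replicate 3 it was 0.99 (SE 1.47, interval -2.45 to 4.43). The interval thus spans large changes in either direction. Between libraries of the same number the log2 ratio of KO over WT was 1.92, -2.72 and -0.70 for numbers 1, 2 and 3, so the pairs did not share a direction.

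Hspa1a and Hspa1b are neighbours that encode nearly the same protein, and reads from either can be hard to place. Of the words of 50 bases in the Hspa1a transcript of GENCODE M21, 58.8% also occur in that of Hspa1b, against 0% in Hspa8. How the authors' software divided reads between the copies is not given in the sources used here, and the row is read as the sum of a gene pair. Their promoters are almost the same as well, with 199 of 200 upstream bases identical. The stretch of Hspa1a, the most variable chaperone of the data, is printed because it holds a pair of inverted units of the heat shock element. Those of Dnaja1 and Hsph1 are printed because they hold such a pair too, while their transcripts moved far less. Whether HSF1 binds these stretches was not tested. They are from RefSeq on build GRCm38.p6, whereas the expression table was made on mm9, and each ends upstream of the annotated start site. Capitals mark a pair of inverted heat shock units.
Hspa1a, chr17:34972157-34972356, minus strand: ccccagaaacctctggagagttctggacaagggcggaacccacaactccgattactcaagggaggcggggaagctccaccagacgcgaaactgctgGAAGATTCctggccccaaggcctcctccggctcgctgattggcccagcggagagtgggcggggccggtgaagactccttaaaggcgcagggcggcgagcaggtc
Dnaja1, chr4:40722329-40722366, plus strand: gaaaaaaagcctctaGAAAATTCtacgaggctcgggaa
Hsph1, chr5:149636347-149636384, minus strand: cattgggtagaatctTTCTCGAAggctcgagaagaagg
The pair was searched as GAANNTTC or TTCNNGAA, each of which reads the same on both strands, in windows from 250 bases before to 50 bases after each start site. RefSeq windows were matched for 6 of the 10 genes, and 4 of these (Hspa1a, Hspa1b, Dnaja1 and Hsph1) held a pair, as did 17% of 27025 genes and 15.1% of 32851 windows. Since the Hspa1a and Hspa1b windows are near copies, they do not count as separate examples. A run of 3 units, that is GAANNTTC followed by NNGAA or TTCNNGAA followed by NNTTC, the one being the reverse complement of the other and each holding 2 overlapping pairs, was found in Hsph1, after the start site, and in 0.662% of all genes. Dnajb1 and Hspa4 had no match in their windows, which says only that these letters are not there. Hspa8, Hsp90aa1, Hsp90ab1 and Hsf1 had no window.

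Hspa8, the constitutive HSP70 of the cytosol, was the most abundant of the 9 rows on average and was less variable than the inducible copies. It was at 332, 413 and 568 RPKM in KO replicates 1 to 3 and at 321, 474 and 792 RPKM in WT replicates 1 to 3. The order of the replicates was the same in both groups, with number 3 highest, and the groups overlapped. Means were 438 ± 120 RPKM in KO libraries and 529 ± 241 RPKM in WT libraries. The log2 fold change was -0.21 (SE 0.39, 95% interval -1.12 to 0.70, limma adjusted p = 0.909) and 0.13 (interval -0.53 to 0.79) without WT replicate 3. Within a library the log2 ratio of the Hspa1a/Hspa1b row over Hspa8, from which scaling between libraries drops out, was -2.71, -3.85 and 0.32 in KO replicates 1 to 3 and -4.66, -1.28 and 0.54 in WT replicates 1 to 3. The inducible copies thus exceeded Hspa8 per kilobase in the libraries numbered 3 of both groups and lay below it in the other 4.

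The HSP90 pair was expressed at nearly equal levels per kilobase, and neither form separated the groups. Hsp90aa1, the form that heat shock induces, was at 253, 281 and 384 RPKM in KO replicates 1 to 3 and at 260, 349 and 384 RPKM in WT replicates 1 to 3. Hsp90ab1, the constitutive form, was at 244, 286 and 332 RPKM in KO replicates 1 to 3 and at 232, 260 and 394 RPKM in WT replicates 1 to 3. Both were highest in the replicate numbered 3 of each group. The log2 fold change of Hsp90aa1 was -0.12 (SE 0.27, 95% interval -0.74 to 0.51, limma adjusted p = 0.915), and that of Hsp90ab1 was -0.01 (SE 0.27, interval -0.65 to 0.63, adjusted p = 0.991). Without WT replicate 3 the intervals were -0.56 to 0.56 for Hsp90aa1 and -0.23 to 0.66 for Hsp90ab1. The within-library log2 ratio of Hsp90aa1 over Hsp90ab1 was 0.05, -0.03 and 0.21 in KO replicates 1 to 3 and 0.16, 0.43 and -0.04 in WT replicates 1 to 3. The inducible form was therefore in excess mainly in WT replicate 2, while WT replicate 3, the library with the highest Hspa1a/Hspa1b level, had almost equal levels of both.

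Of the J-domain genes, Dnajb1 was highest in the libraries numbered 3, as both HSP70 rows were, and Dnaja1 hardly varied. The within-library log2 ratio of Dnajb1 over Hspa8 was -2.91, -3.16 and -2.45 in KO replicates 1 to 3. In WT replicates 1 to 3 it was -2.54, -2.59 and -2.51. Dnajb1 thus kept closer to Hspa8 than the Hspa1a/Hspa1b row did. Dnajb1, whose product is the HSP40 partner of inducible HSP70, was at 44.3, 46.3 and 104 RPKM in KO replicates 1 to 3 and at 55.1, 78.7 and 140 RPKM in WT replicates 1 to 3. Each KO value was below the WT value of the same number, yet KO replicate 3 exceeded WT replicates 1 and 2, so the groups overlapped. Means were 64.9 ± 33.9 RPKM in KO libraries and 91.1 ± 43.6 RPKM in WT libraries, and the log2 fold change was -0.49 (SE 0.44, 95% interval -1.53 to 0.54, limma adjusted p = 0.909). Without WT replicate 3 it was -0.14 (SE 0.37, interval -0.99 to 0.72). The log2 ratios of KO over WT were -0.31, -0.75 and -0.42 for numbers 1, 2 and 3, and with the replicate number as a block in limma the unadjusted p was 0.0186 and the adjusted p = 0.715. Dnajb1 was the only one of the 9 rows with an unadjusted p under 0.05 in that fit, where 3.9% of all tested rows had one. The same held without the libraries numbered 3 (-0.53, SE 0.18, unadjusted p = 0.0254, adjusted p = 0.957), where 4.65% of all tested rows had one. Lower values in KO in all 3 numbered pairs were found for Dnajb1, Hsf1 and Dnaja1, 3 of 9 rows, against 20.1% of all tested rows, and higher values in all 3 for 0 of 9, against 10.8%. Dnaja1, a farnesylated J-domain partner of HSP70, was at 17.8, 17.9 and 19.9 RPKM in KO replicates 1 to 3 and at 18, 18.2 and 21.7 RPKM in WT replicates 1 to 3. Its log2 fold change was -0.05 (SE 0.15, 95% interval -0.40 to 0.29, limma adjusted p = 0.925), so its levels stayed within a narrow band in every library.

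**Figure D2:**
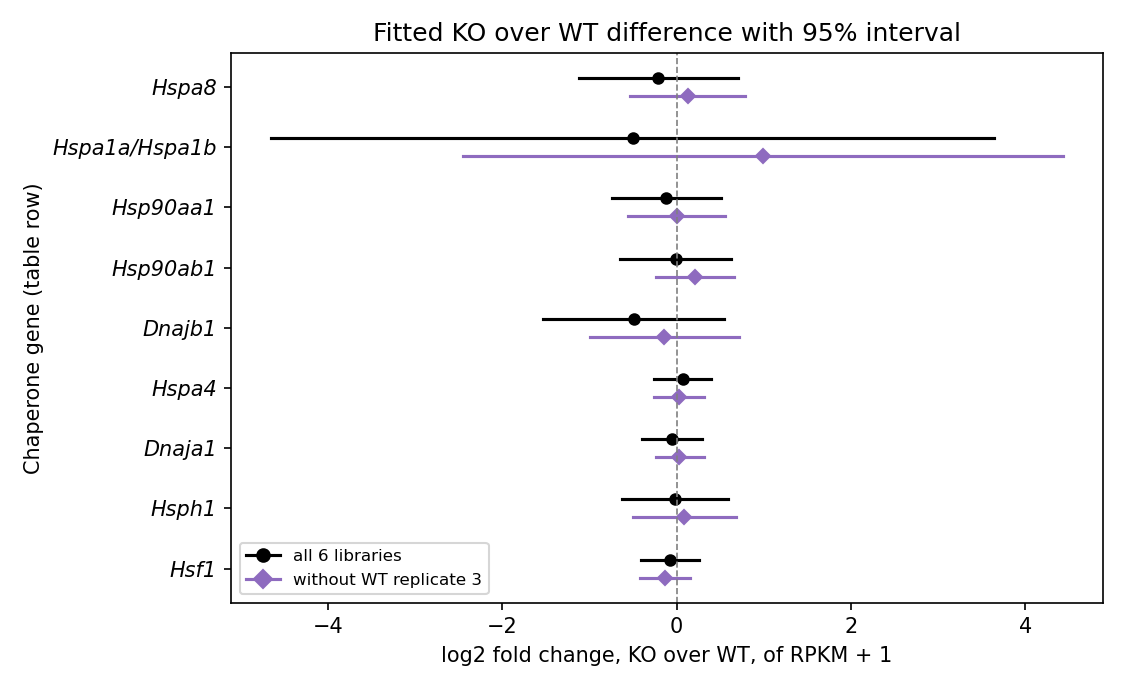
Log2 fold change of RPKM + 1, KO over WT, for the 9 rows, with 95% intervals of the limma fit, in black for all 6 libraries and in purple without WT replicate 3. Every interval includes 0, and that of Hspa1a/Hspa1b, -4.65 to 3.64 with all libraries, is the widest.

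The HSP110 genes, whose products release ADP from HSP70, were also alike in both groups within the spread of the libraries. Hsph1, the heat-inducible member, was at 13.9, 17.4 and 18.2 RPKM in KO replicates 1 to 3 and at 11.1, 21.3 and 19.4 RPKM in WT replicates 1 to 3. Its lowest and highest levels were both in WT libraries, and its log2 fold change was -0.02 (SE 0.26, 95% interval -0.62 to 0.59, limma adjusted p = 0.984). Hspa4, the constitutive member, was at 19.9, 22.2 and 19.1 RPKM in KO replicates 1 to 3 and at 20.0, 19.9 and 18.3 RPKM in WT replicates 1 to 3. It was the only one of the 9 rows with a fitted value above 0, at 0.07 (SE 0.14, interval -0.26 to 0.40, adjusted p = 0.913), and its lowest level was in WT replicate 3. The within-library log2 ratio of Hsph1 over Hspa4 was -0.52, -0.35 and -0.07 in KO replicates 1 to 3 and -0.85, 0.10 and 0.08 in WT replicates 1 to 3. WT replicate 1, the library with the least Hspa1a/Hspa1b RNA, thus also had the lowest ratio of inducible to constitutive HSP110.

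Hsf1, the regulator itself, had the lowest level of the 9 rows in every library and was among the steadiest. It was at 7.25, 8.60 and 7.33 RPKM in KO replicates 1 to 3 and at 8.36, 8.74 and 7.48 RPKM in WT replicates 1 to 3. The range over the libraries was 0.24 on the log2 scale, against a median of 0.70 over all tested rows, and the log2 fold change was -0.08 (SE 0.14, 95% interval -0.41 to 0.26, limma adjusted p = 0.910). HSF1 is activated as a protein, which RNA levels do not show. Its relative Hsf2 lay below 1 RPKM on average and was not tested, with 0.632, 0.660 and 0.667 RPKM in KO libraries and 0.733, 0.796 and 0.254 RPKM in WT libraries.

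The order of the levels, compared per kilobase, was the same at the top of 4 libraries and changed in the other 2. Hspa8 led in KO replicates 1 and 2 and in WT replicates 1 and 2, followed by the HSP90 pair, and Dnajb1 had rank 4 or 5. In KO replicate 3 and WT replicate 3 the Hspa1a/Hspa1b row led. It had rank 4 in KO replicate 1, rank 5 in KO replicate 2, rank 7 in WT replicate 1 and rank 4 in WT replicate 2. The HSP90 forms were neighbours in the order and did not differ beyond their spread, nor did Hspa4, Dnaja1 and Hsph1, which lay between 11.1 and 22.2 RPKM. Summed over the 9 rows, the levels were 983, 1121 and 2161 RPKM in KO replicates 1 to 3 and 938, 1425 and 2926 RPKM in WT replicates 1 to 3. The Hspa1a/Hspa1b row made up 5.15%, 2.56% and 32.8% of that sum in KO replicates 1 to 3 and 1.35%, 13.7% and 39.3% in WT replicates 1 to 3. Without it the sum was 932, 1092 and 1453 RPKM in KO replicates 1 to 3 and 925, 1230 and 1776 RPKM in WT replicates 1 to 3. As a share of the RPKM sum of its library, which was largest in WT replicate 3, the sum over the 9 rows was 0.232%, 0.26% and 0.404% in KO replicates 1 to 3 and 0.203%, 0.337% and 0.359% in WT replicates 1 to 3. Without the Hspa1a/Hspa1b row the share was 0.22%, 0.253% and 0.272% in KO replicates 1 to 3 and 0.201%, 0.291% and 0.218% in WT replicates 1 to 3. On that scale KO replicate 3 was still the highest KO library, but WT replicate 2 and not WT replicate 3 was the highest WT library, so the high WT replicate 3 value of the other chaperones depended on the scaling.

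Immediate early genes, which many kinds of cell stress and handling raise within minutes, gave a mixed picture in the libraries numbered 3. There 7 of 11 tested genes were above their 6-library mean in both, a count made without the share of all tested rows. Junb and Myc were below their mean in KO replicate 3, at 4.98 and 3.54 RPKM, the lowest level of each gene in any library. Ier2 and Ier3 were slightly below their mean there as well. Of the listed genes too low to be tested, Egr1, Egr2, Atf3 and Nr4a1 were highest in the libraries numbered 3, though near the floor. Egr1 was at 1.48 RPKM in KO replicate 3 and 2.08 RPKM in WT replicate 3, and Atf3 at 0.551 and 2.69 RPKM. Fosl1 and Egr3 were at 0 in all libraries. Jun, a subunit of the AP-1 transcription factor, was at 13.6, 7.54 and 34.5 RPKM in KO replicates 1 to 3 and at 3.40, 4.59 and 28.3 RPKM in WT replicates 1 to 3. Its partner Fos was at 11.3, 3.50 and 19.4 RPKM in KO replicates 1 to 3 and at 6.51, 7.58 and 28.0 RPKM in WT replicates 1 to 3. The phosphatase gene Dusp1 was at 76.2, 67.5 and 149 RPKM in KO replicates 1 to 3 and at 71.3, 123 and 248 RPKM in WT replicates 1 to 3. In the other libraries Dusp1 followed the Hspa1a/Hspa1b row in part, with WT replicate 2 above WT replicate 1 and KO replicate 1 above KO replicate 2. Its level in WT replicate 1 was above that in KO replicate 2, however, unlike that of the Hspa1a/Hspa1b row. Jun and Fos also had KO replicate 1 above KO replicate 2 but were nearly level between WT replicates 1 and 2. The log2 fold change of Jun was 0.87 (SE 0.80, limma adjusted p = 0.909). It was 1.73 without WT replicate 3 (limma unadjusted p = 0.0104), 0.32 without KO replicate 3 and 0.36 without WT replicate 1, so its size depended on the libraries used. Jun was higher in KO in all 3 numbered pairs (log2 ratios 1.73, 0.61 and 0.28), as were 10.8% of all tested rows. With the replicate block in limma its unadjusted p was 0.0296 and its adjusted p = 0.715. An unadjusted p under 0.05 was found for 3.9% of all tested rows in that fit. The log2 fold change of Ier3, the lowest of the list, was -0.55 (SE 0.24, limma adjusted p = 0.909) and -0.30 without WT replicate 3. Its KO values (28.7, 26.2 and 33.9 RPKM) all lay below its WT values (37.7, 35.5 and 61.1 RPKM). It was the only 1 of the 11 genes without overlap, against 4.54% of all tested rows. With the replicate block in limma its unadjusted p was 0.0129 and its adjusted p = 0.715. Of the 11 tested immediate early genes 4 had a fitted value above 0 and 7 below 0, with a median of -0.14, and without WT replicate 3 it was 7 above and 4 below (median 0.04), with 0 past the adjusted threshold in both. Libraries numbered 3 held both of the highest levels in 6 of the 9 chaperone rows and in 6 of the 11 immediate early genes, a count made after the values were seen, against 30.5% of all tested rows. The same libraries also had the lowest Malat1 and the lowest megakaryocyte sums (26.1 RPKM in KO replicate 3 and 39.6 RPKM in WT replicate 3, against 69.6 RPKM or more in the others). Their hepatocyte sums were the lowest too (14.8 RPKM in KO replicate 3 and 39.1 RPKM in WT replicate 3, against 55.3 RPKM or more). Single markers did not all follow. Alb, Afp, Trf and the megakaryocyte markers other than Gp9 were lowest in both libraries. In WT replicate 3, however, Gp9 was at its highest (23.4 RPKM). Apoa1, Apoa2, Ttr and Serpina1a (4.35, 6.61, 2.37 and 0.555 RPKM) were there above every library but KO replicate 2. The part of these differences, of handling and of transcript length in the chaperone levels was not tested.

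**Figure D3:**
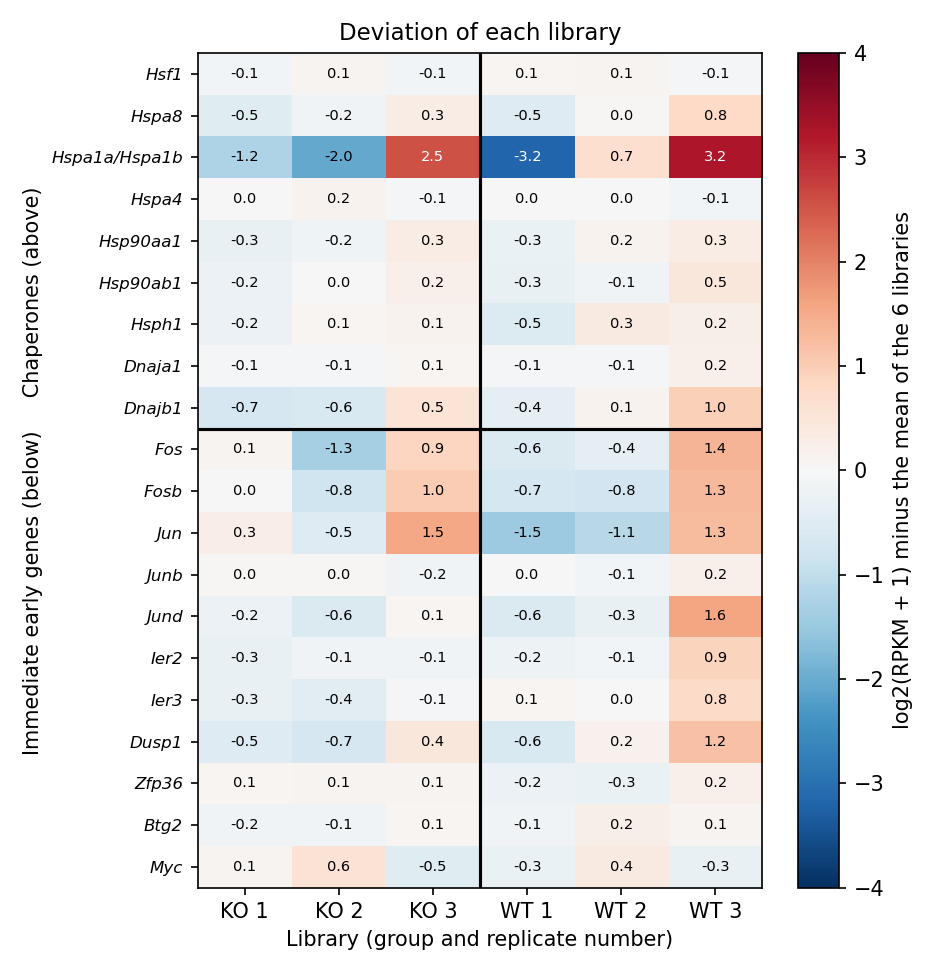
Log2(RPKM + 1) of each library minus the mean of the 6 libraries, with KO replicates at the left and WT replicates at the right, for the 9 rows above the line and 11 immediate early genes below it. The Hspa1a/Hspa1b row deviates most, from -3.2 in WT replicate 1 to 3.2 in WT replicate 3, and Jun and Fos are also above their means in both libraries numbered 3.

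Genes whose profile over the 6 libraries was most like that of Hspa1a/Hspa1b, by the root mean square difference of centred log2 values, were Gm1821 (1.51), the water channel gene Aqp1 (1.57), the exonuclease gene Isg20 (1.58), the histone gene Hist1h4a (1.58) and the fatty acid receptor gene Cd36 (1.59). The range over the libraries was 2.25 to 3.49 for these 5 genes on the log2 scale, against 6.39 for Hspa1a/Hspa1b, so the likeness was in outline only. Aqp1 was at 12.6, 18.6 and 40.2 RPKM in KO replicates 1 to 3 and at 15.4, 32.1 and 83.5 RPKM in WT replicates 1 to 3. It thus shared the high libraries numbered 3 and the step between WT replicates 1 and 2. Between KO replicates 1 and 2 it rose, however, where the Hspa1a/Hspa1b row fell from 50.6 to 28.7 RPKM. Gata1, whose protein HSP70 guards in human cells, was at 185, 165 and 246 RPKM in KO replicates 1 to 3 and at 213, 197 and 335 RPKM in WT replicates 1 to 3.

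The wider chaperone network, followed through lists of partner genes, gave no tested gene past the threshold, with all 6 libraries or without WT replicate 3. Beyond the 9 rows, 93 genes of the lists were tested, of which 29 had a fitted value above 0 and 64 below 0 (median log2 fold change -0.10), and the median was -0.01 without WT replicate 3. Of all 8302 tested rows, 3900 had a fitted value above 0 and 4402 below 0. Co-chaperones of HSP90 and HSP70 had 6 of 18 above 0 and 12 below 0 (median -0.14). Among them the assembly factor gene Pih1d1 was lowest, at 19.1, 20.7 and 23.0 RPKM in KO libraries and 25.2, 20.6 and 51.2 RPKM in WT libraries, with a log2 fold change of -0.50 (SE 0.32, limma adjusted p = 0.909) and, without WT replicate 3, of -0.12. The highest, Cdc37l1, a relative of the kinase co-chaperone Cdc37, was at 11.6 ± 1.37 RPKM in KO libraries and 9.92 ± 2.87 RPKM in WT libraries. Stip1, which hands clients from HSP70 to HSP90, was at 52.0 ± 4.81 RPKM in KO libraries and 58.7 ± 8.27 RPKM in WT libraries, and Ahsa1, an activator of the HSP90 ATPase, at 109 ± 5.57 RPKM in KO and 122 ± 34.6 RPKM in WT libraries. Both overlapped between the groups. Nucleotide exchange factors, with the HSP110 genes, had 3 of 10 above 0 and 7 below 0 (median -0.06), and 6 above and 4 below without WT replicate 3, with Hspa4l highest (22.9 ± 4.92 RPKM in KO and 20.9 ± 1.39 RPKM in WT libraries) and Hspbp1 lowest (18.6 ± 2.19 RPKM in KO and 24.9 ± 7.28 RPKM in WT libraries). Bag3, an HSF1 target that links HSP70 to autophagy, was at 2.98 ± 0.855 RPKM in KO and 2.98 ± 0.308 RPKM in WT libraries, and its level in the libraries numbered 3 was 3.35 RPKM in KO and 3.19 RPKM in WT, so the high levels of Hspa1a/Hspa1b there had no counterpart in this gene.

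J-domain genes had 6 of 17 fitted values above 0 and 11 below 0 (median -0.07), but 12 above and 5 below without WT replicate 3 (median 0.05). Dnajb2 was at 57.4 ± 5.95 RPKM in KO and 79.0 ± 25.6 RPKM in WT libraries and Dnajc13, an endosomal J-domain gene, at 4.53 ± 0.605 RPKM in KO and 3.81 ± 2.04 RPKM in WT libraries. The HSP70 family had 2 of 5 above 0, and 4 of 5 without WT replicate 3, with Hspa13 at 2.19 ± 0.446 RPKM in KO and 1.89 ± 0.348 RPKM in WT libraries and Hspa14 at 39.7 ± 4.02 RPKM in KO and 41.2 ± 6.18 RPKM in WT libraries. In the list of heat shock factors and their regulators 2 of 4 were above 0, and 0 of 4 without WT replicate 3. The nuclear pore gene Ranbp2 was at 51.8, 37.3 and 33.9 RPKM in KO libraries and 40.9, 42.0 and 13.4 RPKM in WT libraries, with a log2 fold change of 0.48 (SE 0.43, limma adjusted p = 0.909) and, without WT replicate 3, of -0.04. Hsbp1, which binds the trimer domain of HSF1, was at 9.82 ± 1.21 RPKM in KO and 12.8 ± 3.0 RPKM in WT libraries. The chaperonin TRiC, which folds actin and tubulin, had 0 of 8 above 0 and 8 below 0 (median -0.13, and -0.02 without WT replicate 3), with Cct5 lowest at 127 ± 14.8 RPKM in KO and 154 ± 38.8 RPKM in WT libraries. Prefoldin, which delivers clients to it, had 0 of 6 above 0 and 6 below 0 (median -0.30, and 0.05 without WT replicate 3), with the row of Pfdn5 and Myg1 lowest at 95.7 ± 19.8 RPKM in KO and 148 ± 98.9 RPKM in WT libraries. WT replicate 3 held the highest level of 6 of the 8 TRiC genes and 5 of the 6 prefoldin rows, against 41.7% of all tested rows.

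Chaperones of other compartments were set beside the cytosolic ones. The endoplasmic reticulum list had 6 of 15 fitted values above 0 and 9 below 0 (median -0.04). Hspa5, the HSP70 of that compartment, was at 163 ± 24.5 RPKM in KO and 187 ± 68.4 RPKM in WT libraries, and its HSP90, Hsp90b1, at 49.4 ± 1.55 RPKM in KO and 50.7 ± 2.38 RPKM in WT libraries. The highest fitted value was that of Sil1, an exchange factor of Hspa5, at 1.70 ± 0.334 RPKM in KO and 1.44 ± 0.229 RPKM in WT libraries, and the lowest that of Sdf2l1, at 13.9 ± 1.34 RPKM in KO and 17.5 ± 3.76 RPKM in WT libraries. Mitochondrial chaperones and proteases, of interest because Tfam acts in that organelle, had 4 of 15 above 0 and 11 below 0 (median -0.13, and -0.04 without WT replicate 3). Hspa9, the HSP70 of the matrix, was at 24.1, 34.3 and 21.2 RPKM in KO libraries and 24.2, 26.0 and 15.4 RPKM in WT libraries, with a log2 fold change of 0.27 (SE 0.26, limma adjusted p = 0.909), which was 0.05 without WT replicate 3 and 0.08 without KO replicate 2. The chaperonin genes Hspd1 and Hspe1 were at 53.1 ± 14.6 RPKM and 76.2 ± 15.3 RPKM in KO libraries and at 49.8 ± 6.60 RPKM and 85.7 ± 30.3 RPKM in WT libraries. All 3 of these matrix chaperones were highest among the KO libraries in replicate 2, a library with little Hspa1a/Hspa1b RNA. Hscb, a J-domain gene of iron-sulfur cluster assembly, had the lowest fitted value of the list at -0.44 (SE 0.47, limma adjusted p = 0.909) and was at 69.4, 66.9 and 103 RPKM in KO libraries and 77.9, 66.6 and 234 RPKM in WT libraries. Without WT replicate 3 its value was 0.12.

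**Figure D4:**
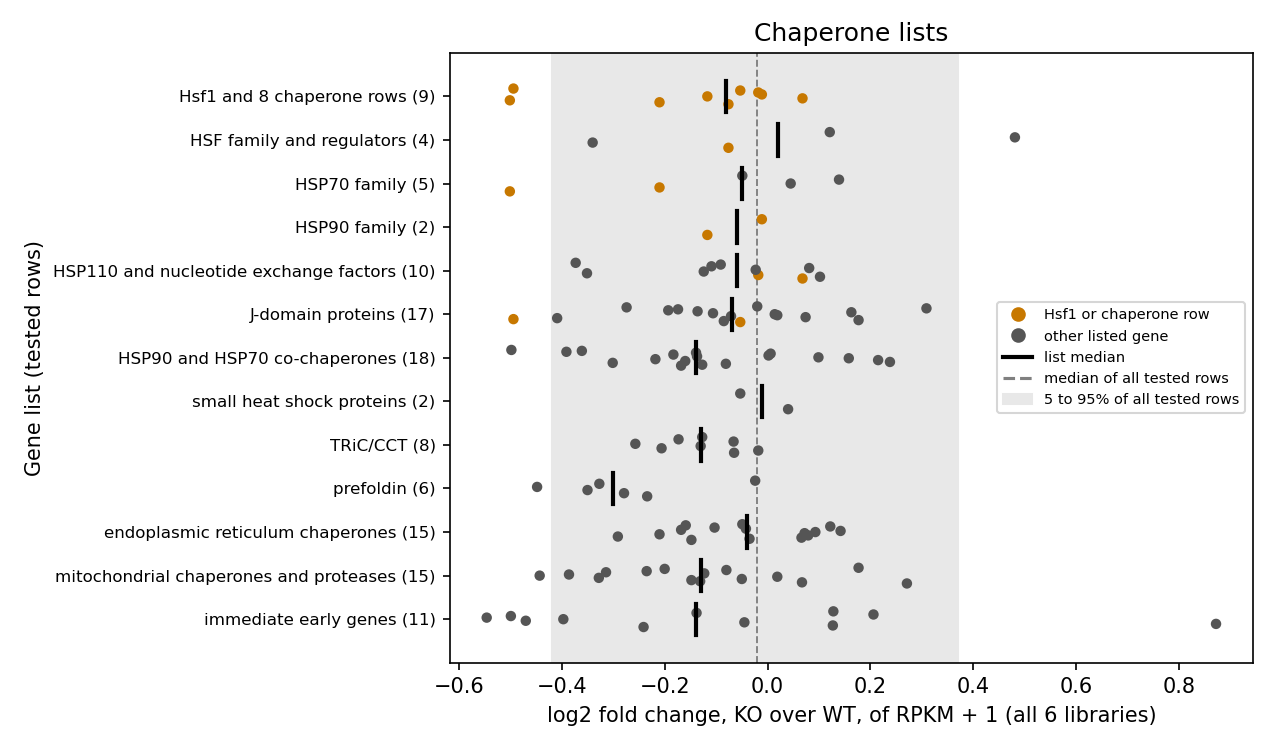
Log2 fold changes of RPKM + 1, KO over WT with all 6 libraries, for each tested gene of the chaperone lists and the immediate early genes, with the list medians as black bars and the range that holds 5 to 95% of all tested rows, -0.42 to 0.37, in grey. Hsf1 and the 8 chaperone rows are in orange, and most points lie within the grey range.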

How the data were processed

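The 6 libraries were grouped by their titles. RPKM values were deposited by the authors as 1 table, and TopHat and Cufflinks with build mm9 were used, per the submitters' processing notes. For versions, annotation and strand setting: not given in the sources used here. Of 23119 rows, 25 named no gene and were left out (a mean of 0.158% of the RPKM sum). Where a gene had several rows, the one with the highest mean RPKM was used.

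Rows whose RPKM averaged 1 or more over the 6 libraries were tested with limma 3.58.1 (R 4.3.3), with log2(RPKM + 1) as the response, a scale that understates changes of low genes, with a mean-variance trend and Benjamini-Hochberg adjustment over all tested rows. Lists were described by counts and medians, without a test. Figures were drawn with matplotlib 3.10.9. The fit was tested on simulated data.

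Absolute read depth is unknown. Steps between RPKM values below 0.05 gave depths relative to WT replicate 2 of 92.7%, 84.4% and 79.6% for KO replicates 1 to 3 and 88.9% for WT replicate 1, with 44.4%, 80.7%, 82.5% and 80.3% of rows on whole-read steps. For WT replicate 3, 24.0% lay on steps, against 13.2% at an arbitrary offset, and its depth was not resolved.

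Deviations from the group means correlated across genes at 0.461, 0.171 and 0.526 between the libraries numbered 1, 2 and 3. Each was above 0.1, so the fit with the replicate number as a block was given as an alternative to the unpaired one. KO replicate 1 also correlated at 0.4 with WT replicate 2, above the 0.171 of the libraries numbered 2, and the pairing comes from the data and not from a label.

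The genes, lists and tests were chosen with earlier results of these data known. The text names the 10 genes, Tfam, the lowest and highest fitted gene of each list, a set of partner and erythroid genes, and the 5 genes most like the most variable chaperone; Jun's companions Fos and Dusp1, Malat1 and the small RNA genes were chosen after their values were seen. No row for Ahsp was found under that name. Alternatives were the pseudocount, the filter, the variance trend, scaling, the length trend, the replicate block, each library left out and the libraries numbered 3 left out.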

Additional observations from a re-analysis of the deposited data

How the results depend on the processing

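None of the 9 chaperone rows passed an adjusted p of 0.05 with limma under any of the 16 alternatives, the lowest adjusted p being 0.665. Dnajb1 kept a log2 fold change below 0 in all 16, from -0.89 to -0.14. The filter, the variance trend and the replicate block alone leave a row's fold change as it was, so no sign could change under them. Of the 144 alternative fold changes of the 9 rows, with these repeats included, 118 kept their sign and 26 did not. Of the 26, 6 arose with each library at the same RPKM sum. That scaling moved all rows together (median 0.17, against -0.02 as reported) and so says nothing particular to the chaperones. Under that scaling the value was 0.022 for Hspa8, 0.115 for Hsp90aa1, 0.221 for Hsp90ab1, 0.20 for Hsph1, 0.167 for Dnaja1 and 0.123 for Hsf1. Quantile normalization gave 0.039 for Hspa8, 0.105 for Hsp90aa1, 0.172 for Hsp90ab1 and 0.030 for Hsph1. Removal of the length trend gave 0.067 for Hsp90ab1 and -0.0076 for Hspa4, with or without the replicate block. When libraries were left out, the value ran from -2.21 (without WT replicate 1) to 0.991 (without WT replicate 3) for Hspa1a/Hspa1b, from -0.521 to 0.130 for Hspa8, from -0.292 to 0.0088 for Hsp90aa1, from -0.165 to 0.215 for Hsp90ab1, from -0.292 to 0.150 for Hsph1, from -0.102 to 0.032 for Dnaja1, from -0.039 to 0.751 for Ranbp2 and from -0.779 to 0.118 for Hscb. The cause was not tested. Over all genes the count past the threshold was 0 with all libraries (100 at an unadjusted p under 0.05) and 0 to 2 with libraries left out: Mir135a-1 and Snord88c without KO replicate 2, Snord96a without KO replicate 3, Snord67 without WT replicate 3, and Snord67 and Snord96a without the libraries numbered 3. None of these is a chaperone gene. The replicate block, with the numbers taken as pairing the libraries, left the count at 0 (324 at an unadjusted p under 0.05, and 533 with the length trend also removed) and changed no call. With 3 libraries a group, and absolute depth unknown, intervals of the Hspa1a/Hspa1b row cannot resolve differences of several log2 units.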

Other observations

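The second Dnaja1 row, which names no other gene, was low but far more variable than the row used, at 0.831, 2.45 and 2.25 RPKM in KO replicates 1 to 3 and 0.602, 4.37 and 1.14 RPKM in WT replicates 1 to 3. The sum of both rows was 18.7, 20.3 and 22.1 RPKM in KO replicates 1 to 3 and 18.6, 22.5 and 22.9 RPKM in WT replicates 1 to 3.

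Among the small heat shock proteins, 2 of 9 genes had a mean of at least 1 RPKM. Hspb6 was at 9.25 ± 0.913 RPKM in KO libraries and 8.96 ± 0.705 RPKM in WT libraries, and Hspb11, whose product also belongs to the intraflagellar transport complex, at 3.01 ± 0.778 RPKM in KO libraries and 3.42 ± 2.09 RPKM in WT libraries. The HSF1 target Hspb1 was at 0, 0.0576 and 0.366 RPKM in KO replicates 1 to 3 and at 0.112, 0 and 0.134 RPKM in WT replicates 1 to 3, so it stayed near 0 in the libraries in which Hspa1a/Hspa1b led the chaperones.

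Xist, the RNA of the inactive X chromosome, had the widest range of all tested rows, at 122, 0.0253 and 59.3 RPKM in KO replicates 1 to 3 and at 93.1, 0.0776 and 0.023 RPKM in WT replicates 1 to 3. The Y-linked gene Eif2s3y showed the opposite pattern, at 0.0227, 48.8 and 0 RPKM in KO replicates 1 to 3 and at 0, 34.7 and 39.5 RPKM in WT replicates 1 to 3. Xist was thus high in KO replicates 1 and 3 but only in WT replicate 1, so the patterns were not balanced between the groups. KO and WT libraries numbered 1 were alike in these genes, as were those numbered 2. Those numbered 3, which had the most Hspa1a/Hspa1b RNA, differed. KO replicate 3 had Xist and WT replicate 3 had the Y-linked gene. The part of this in the comparisons by number was not tested. These genes were chosen after their values were seen.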
